A study of Mus musculus with 27 samples.

Results

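Hematopoietic niche factors were followed in Prx1-derived cells of the mouse hindlimb through 9 genes, Cxcl12, Kitl, Angpt1, Il7, Lepr, Vcam1, Foxc1, Ebf1 and Ebf3. They were picked by symbol from the 30153 genes of the deposited table, and all 9 were among the 18442 genes with a normalized count of at least 10 in at least 3 libraries. The cells came from Prx1-CreER/Ai14/Rag1 mice of both sexes, 8 to 12 weeks old, harvested 3 days after the last of 2 tamoxifen doses. CreER ran from the Prx1 promoter, so that the Ai14 reporter left tdTomato in Prx1 cells and in whatever had descended from them, and every group carried the Rag1 mutation. Bone marrow was flushed out of femur and tibia, whereas periosteum and muscle were dissociated with collagenase for 20 minutes and for 1 hour, so tissue and digestion cannot be told apart. From each tissue, tdTomato+ CD45- cells were sorted by 2 surface markers. P3 held the CD105+ cells, with CD200 variable, and CD105- cells were split into P1 with CD200 (CD200+) and P2 without it (CD200-). The 9 groups of 3 libraries gave 27 bulk RNA-seq libraries. Each group came from 3 mice, and the groups probably share animals. Neither this nor which mouse gave which library is given in the sources used here. The p values therefore treat as independent some libraries that may not be.

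In adult bone marrow, blood stem cells lie next to perivascular stromal cells that carry the leptin receptor and secrete large amounts of the chemokine CXCL12. CXCL12 holds cells with its receptor CXCR4 in the marrow, stem cell factor (the product of Kitl) keeps stem cells alive through the receptor KIT, and interleukin 7 feeds B cell precursors. The transcription factors FOXC1, EBF1 and EBF3 are known to maintain these stromal cells and their niche function.

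Levels are normalized counts as deposited. A difference is one of mean log2(normalized count + 1) from a limma fit over all 9 groups, given with its standard error (SE) and a p value adjusted over the 18442 genes. A gene counted as a DEG where its adjusted p was under 0.05 and its difference lay beyond 1.5 on the log2 scale in either direction, as the study set it. Where niche factors with an unadjusted p below 0.05 are counted, the share of all genes below it was not computed. The shares beside such counts are of DEGs and cannot be set against them. In bulk libraries, fewer cells of a type and less RNA per cell cannot be told apart.

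Libraries summed to between 8631881 and 26230908 normalized counts, with 12396 to 21675 genes above 0, and replicates of a group correlated across genes with r between 0.631 and 0.955. Bone marrow P3 replicate 1 was the highest of its group for all 9 niche factors, and bone marrow P1 replicate 2 was the lowest of its group for all 9. Prrx1, the gene whose promoter drove CreER, was at 1969 ± 391 in bone marrow P1 and at 110 ± 53.3 in bone marrow P2 (mean ± SD, n = 3). Sorted fractions also held transcripts of other cells. A list of 9 erythroid genes took 45% to 48.1% of the counts of bone marrow P2 and 24.4% to 39.2% of those of periosteum P2. A list of 9 osteoblast genes took 18.7% to 23.8% of bone marrow P1. Although CD45+ cells had been excluded, the summed level of 10 leukocyte genes was 18363 to 64448 there. It was 40844 to 228999 in bone marrow P2, 11563 to 54763 in bone marrow P3 and 835 to 97540 in periosteum P2. As a share of the counts, it was at most 0.385%, 0.873%, 0.559% and 0.405% in the same order. The part these cells had in the results below was not tested.

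**Figure D1:**
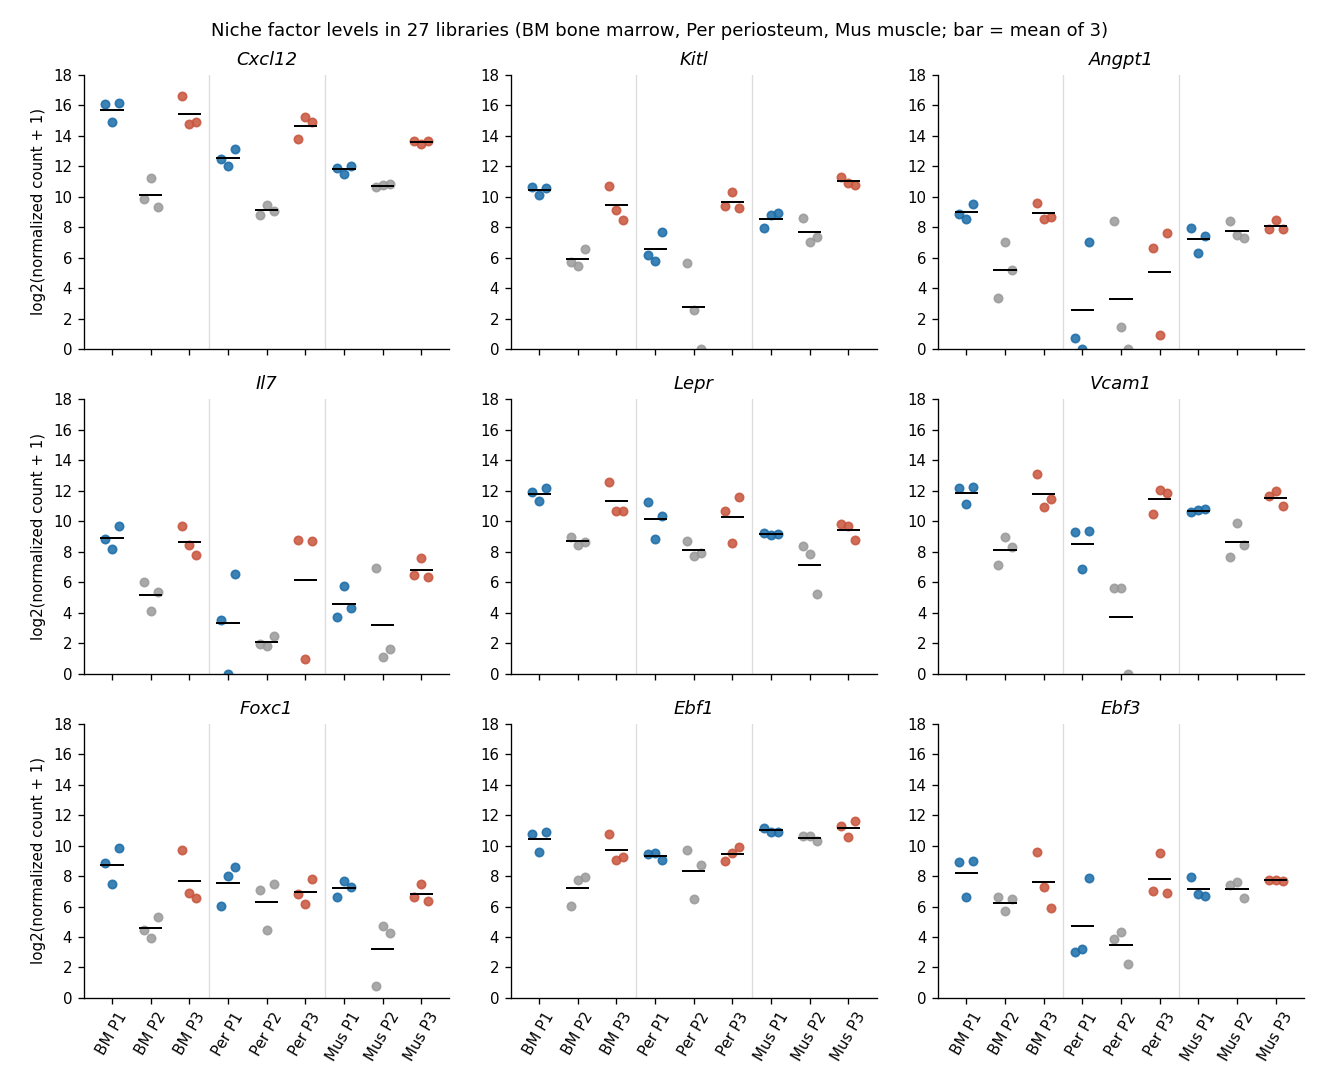
Levels of the 9 niche factors in 27 libraries, 1 panel per gene, as log2(normalized count + 1) on the vertical axis and the 9 groups on the horizontal axis (BM bone marrow, Per periosteum, Mus muscle). Each point is 1 library, blue for P1, gray for P2 and red for P3, and each bar is the mean of 3. Cxcl12 was the highest in bone marrow P1 and P3, while the 3 muscle groups held the highest mean levels of Ebf1.

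Cxcl12 (chr6:117168535-117181367, GRCm38) had the highest mean level per kilobase of the 9 genes in every group, and its libraries of bone marrow P1 lay above those of every P2 group. Its normalized counts were 70149, 30282 and 71126 in bone marrow P1, 936, 2368 and 627 in bone marrow P2, and 101060, 27731 and 30573 in bone marrow P3. P1 and P3 of bone marrow overlapped, and both lay above all 3 libraries of P2. In periosteum the gene was at 5623, 4051 and 9103 in P1, at 449, 702 and 526 in P2, and at 14272, 38432 and 30393 in P3, with no overlap between the 3 subpopulations. In muscle the order was the same with smaller steps, 3778, 2918 and 4145 in P1, 1581, 1710 and 1824 in P2, and 13143, 11158 and 13039 in P3. Divided by the 8176 bases of its merged exons, the level per kilobase was 6994 ± 2850 in bone marrow P1 and 6497 ± 5081 in bone marrow P3. On that scale Cxcl12 ranked between 57 and 158 among 29732 genes in the P1 libraries of bone marrow and between 25 and 159 in the P3 libraries. In periosteum P3 it ranked between 133 and 325, which overlapped with both, and in muscle P1 it ranked no higher than 1099. A single gene thus took up to 1.17% of a library, in bone marrow P3 replicate 1.

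Kitl (chr10:100015630-100100416), which encodes stem cell factor, was not a gene of marrow alone. Its highest levels were in muscle P3, at 2553, 1944 and 1770, above bone marrow P1 at 1577, 1104 and 1535 without overlap. Bone marrow P3 was at 1692, 549 and 359 and periosteum P3 at 666, 1273 and 601, which overlapped with each other and with bone marrow P1. The lower groups began with muscle P1, which stayed below periosteum P3 in every library. They were muscle P1 (247, 452 and 476), muscle P2 (385, 129 and 165), periosteum P1 (72.2, 54.2 and 206), bone marrow P2 (50.5, 43 and 95.7) and periosteum P2 (48.3, 4.93 and listed at 0). By mean level, each of the neighbors in this lower part of the order overlapped. The summed level of 8 endothelial genes was 34541 to 59655 in muscle P3 and 24225 to 47317 in periosteum P3. It was 3000 to 9692 in bone marrow P3 and 168 to 185 in bone marrow P1, and the part of endothelial cells in the Kitl levels was not tested.

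Promoter sequences are shown for the chemokine and stem cell factor, the ligands that changed most between subpopulations, and for Ebf3, whose window held a match to the core motif of its own protein family. They are RefSeq sequences of GRCm38.p6, with 250 bases before and 50 bases from the transcription start, and 6 of the 9 genes had an entry (Cxcl12, Kitl, Lepr, Foxc1, Ebf1 and Ebf3). Capitals mark matches on either strand to CCCNNGGG, the core of the EBF motif, TGTTTAC, a forkhead motif, TATAAA, the TATA box, or GGGNTTTCC, an NF-kB motif. These letters stood in 13.7%, 3.65%, 13.6% and 1.68% of all 32851 promoters of the table.
Cxcl12 (chr6:117168285-117168584, plus strand): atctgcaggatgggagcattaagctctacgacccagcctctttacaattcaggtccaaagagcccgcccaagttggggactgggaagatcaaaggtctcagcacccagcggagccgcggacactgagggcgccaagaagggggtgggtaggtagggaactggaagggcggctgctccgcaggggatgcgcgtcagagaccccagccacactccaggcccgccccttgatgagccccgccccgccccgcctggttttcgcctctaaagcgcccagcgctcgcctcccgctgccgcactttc
Kitl (chr10:100015571-100015870, plus strand): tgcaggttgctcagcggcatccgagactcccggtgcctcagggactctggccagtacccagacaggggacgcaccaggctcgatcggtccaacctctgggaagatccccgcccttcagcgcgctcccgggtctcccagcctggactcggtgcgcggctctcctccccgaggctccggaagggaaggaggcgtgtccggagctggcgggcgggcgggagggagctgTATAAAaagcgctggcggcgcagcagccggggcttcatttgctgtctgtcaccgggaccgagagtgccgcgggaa
Ebf3 (chr7:137314396-137314695, minus strand): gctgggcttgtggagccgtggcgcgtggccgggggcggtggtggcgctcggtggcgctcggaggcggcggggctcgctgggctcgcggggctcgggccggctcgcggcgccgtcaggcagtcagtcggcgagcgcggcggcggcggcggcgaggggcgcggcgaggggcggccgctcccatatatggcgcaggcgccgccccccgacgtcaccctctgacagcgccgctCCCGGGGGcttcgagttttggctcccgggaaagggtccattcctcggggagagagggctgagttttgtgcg
The Kitl window held TATAAA beginning 25 bases before the start, and the Ebf3 window held CCCNNGGG beginning 21 bases before it. No other match lay in the 8 windows of the 6 genes, which covers these letters only.

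Angpt1 and Il7 had their highest mean levels in P1 and P3 of bone marrow, and both were uneven within the periosteum P1 and P3 groups. Angpt1 (chr15:42424723-42676977), a ligand of the receptor TIE2, was at 464, 368 and 725 in bone marrow P1 and at 770, 377 and 409 in bone marrow P3. Neither group overlapped with the third of bone marrow, P2, at 9.05, 129 and 35.5. In periosteum P1 it was at 0.661, listed at 0 and at 127, in periosteum P2 at 333, 1.72 and listed at 0, and in periosteum P3 at 96.5, 0.866 and 198, so a single library carried the mean of P1 and of P2. The muscle groups lay between 77.9 and 351 in every library. Il7 (chr3:7569994-7613760) showed a like pattern, with 451, 285 and 809 in bone marrow P1, 64.7, 16.2 and 40.4 in P2, and 839, 347 and 215 in P3. Its periosteum P3 libraries were at 443, 0.913 and 421, and both genes were thus below 1 in periosteum P3 replicate 2, the library with the fewest genes above 0. In periosteum P1 Il7 was at 10.3, listed at 0 and at 90.3, and in periosteum P2 it did not exceed 4.42. In muscle it was at 12.2, 51.9 and 18.8 in P1, 122, 1.07 and 2.02 in P2, and 88.8, 188 and 81.3 in P3, with P3 above P1 in every library.

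Lepr (chr4:101717404-101815352), the leptin receptor, was at 3821, 2565 and 4567 in bone marrow P1 and at 6112, 1651 and 1634 in bone marrow P3, above 488, 346 and 399 in P2. Periosteum spanned a wide range, with 2436, 448 and 1302 in P1 and 1643, 387 and 3058 in P3, whereas muscle P1 was tight at 606, 555 and 561. The remaining groups were muscle P3 at 894, 826 and 438, periosteum P2 at 415, 210 and 239 and muscle P2 at 334, 226 and 36. In each tissue P1 thus lay above P2 in all 3 libraries, and by mean level the only step in the order of groups without overlap was that between muscle P1 and bone marrow P2. Vcam1 (chr3:116109949-116129688), an adhesion molecule that binds the integrin of Itga4 and Itgb1, had similar levels in the 3 P3 groups. It was at 8667, 1937 and 2740 in bone marrow P3, 1446, 4243 and 3709 in periosteum P3 and 3244, 3991 and 2049 in muscle P3, all overlapping. In P1, bone marrow was at 4664, 2233 and 4744, muscle at 1516, 1663 and 1740, and periosteum at 615, 114 and 649, and these 3 tissues did not overlap. P2 was below P1 of the same tissue in every library, at 136, 488 and 319 in bone marrow, 195, 958 and 343 in muscle and 46.9, 48.1 and listed at 0 in periosteum.

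Among the transcription factors, Ebf1 (chr11:44617317-45008091) stood apart from the rest by its level in muscle. Its normalized counts were 2306, 1897 and 1939 in muscle P1, 1578, 1592 and 1255 in muscle P2 and 2521, 1504 and 3144 in muscle P3. Bone marrow P1 reached 1749, 777 and 1882, below all 3 libraries of muscle P1, bone marrow P3 was at 1705, 542 and 614, and bone marrow P2 was lowest by mean at 65.3, 211 and 250. The periosteum groups lay between, at 683, 730 and 539 in P1, 853, 87.6 and 431 in P2 and 501, 730 and 977 in P3, all overlapping. Foxc1 (chr13:31806633-31812476), a gene with 1 exon, was at 471, 174 and 901 in bone marrow P1, against 21.2, 14.1 and 38.8 in bone marrow P2. In muscle P2 it was at 0.72, 25.2 and 17.9, below muscle P1 (96.8, 208 and 155) in every library. The other groups overlapped with their neighbors in the order of means, with 821, 118 and 91.7 in bone marrow P3, 63.9, 251 and 387 in periosteum P1, 134, 20.6 and 177 in periosteum P2, 112, 71.7 and 226 in periosteum P3 and 95.6, 174 and 80.6 in muscle P3. Ebf3 (chr7:137193673-137314445) was at 483, 99.6 and 498 in bone marrow P1, 97, 50.8 and 87.9 in P2, and 779, 157 and 57.9 in P3. Its 3 libraries of periosteum P1, at 7.24, 8.19 and 233, and of periosteum P3, at 130, 746 and 120, each held 1 value well above the other two. In muscle it was at 248, 113 and 105 in P1, 167, 190 and 93.7 in P2 and 217, 214 and 205 in P3. Its lowest group was periosteum P2, at 13.5, 19 and 3.65, below all 3 libraries of bone marrow P2. Per kilobase of merged exons, the mean level in bone marrow P1 was 151 ± 61.9 for Ebf1, 88.2 ± 62.6 for Foxc1 and 39 ± 24.5 for Ebf3 (SD, n = 3).

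The comparison of P1 with P2 asked how the CD200+ fraction of each tissue differed from the fraction with neither marker. In bone marrow, all 9 niche factors were higher in P1, with no overlap between the libraries, which 23.6% of all genes tested also showed in that direction. DEGs with higher levels in P1 were 6 of the 9, against a background of 10.4% of all genes. Cxcl12 had the largest log2 difference, 5.58 (SE 0.47, adjusted p = 5.38e-09), followed by Kitl with 4.53 (SE 0.94, adjusted p = 0.000734) and Foxc1 with 4.15 (SE 1.09, adjusted p = 0.00524). Vcam1, Ebf1 and Lepr had log2 differences of 3.73, 3.17 and 3.12 (adjusted p = 0.00757, 0.000663 and 0.00315). Angpt1, Il7 and Ebf3 had log2 differences of 3.78, 3.71 and 1.92 and were no DEGs (adjusted p = 0.111, 0.0993 and 0.199), though Il7 passed without periosteum P3 replicate 2 (adjusted p = 0.0365). The 6 calls held without any single library. The median of the 9 was 3.73, and that of all genes was -0.61. Beside these differences, all 9 erythroid genes were lower in P1 and all 9 osteoblast genes higher, so the makeup of the fractions moved with the niche factors. Taking the globin genes out of the library totals left 6 DEGs. That setting changes only the scaling of the libraries, so it cannot show what part the makeup of the fractions had.

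In periosteum, 3 of the 9 were DEGs higher in P1 than in P2, where 10.1% of all genes were. Vcam1 had a log2 difference of 4.75 (SE 1.03, adjusted p = 0.00221), Kitl of 3.83 (SE 0.94, adjusted p = 0.00574) and Cxcl12 of 3.43 (SE 0.47, adjusted p = 1.28e-05). These 3 genes and Lepr did not overlap between P1 and P2, as 10.2% of all genes did not in that direction. Lepr, at 2.03 (adjusted p = 0.0644), became a DEG without periosteum P1 replicate 2, periosteum P3 replicate 2 or muscle P2 replicate 3 (adjusted p = 0.026, 0.0364 and 0.0356). With the 2 groups fitted on their own, Kitl and Vcam1 were no longer DEGs (adjusted p = 0.401 and 0.356). Both differences rest on low values in periosteum P2, with Kitl at 48.3, 4.93 and listed at 0 and Vcam1 at 46.9, 48.1 and listed at 0. Under other settings the Kitl difference ran from 2.84 to 5.01 and that of Vcam1 from 3.92 to 5.87. Without 1 library they ran from 2.46 to 5.27 and from 2.88 to 5.69. The makeup of the 2 groups differed too. Erythroid genes took 24.4% to 39.2% of the counts of periosteum P2 and 0.121% to 0.346% of those of periosteum P1. Osteoblast genes took 0.0906% to 0.38% of P2 and 5.49% to 11.2% of P1. A list of 5 cartilage genes took 2.12% to 3.66% of P2 and 0.505% to 2.89% of P1, which overlapped. The part of these transcripts was not tested.

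In muscle, only Foxc1 of the 9 was a DEG, with a log2 difference of 3.96 (SE 1.09, adjusted p = 0.0217), against 3.59% of all genes higher in P1. The call was lost without muscle P1 replicate 2, muscle P1 replicate 3 or muscle P2 replicate 1 (adjusted p = 0.0886, 0.0707 and 0.16). Foxc1, Cxcl12, Lepr, Vcam1 and Ebf1 were higher in P1 without overlap, as were 19.0% of all genes. Cxcl12 differed by 1.07 (SE 0.47, adjusted p = 0.186), Lepr by 2.02 (adjusted p = 0.11), Vcam1 by 2.03 (adjusted p = 0.281) and Ebf1 by 0.48 (adjusted p = 0.785). When the values were rescaled to equal library totals, Cxcl12 and Lepr were also DEGs, with log2 differences of 1.73 and 2.68 (adjusted p = 0.017 and 0.0372). Other transcripts moved with these differences. A list of 5 myofibre genes took 8.88% to 9.45% of the counts of muscle P2 and 0.179% to 0.302% of those of muscle P1, and all 5 were lower in P1. The summed level of 7 mural cell genes was 37395 to 84850 in muscle P1 and 399 to 2467 in muscle P2, with 5 of the 7 higher in P1. Of the 9 osteoblast genes, 8 were higher in P1. Satellite cell genes, a list of 6, summed to 3865 to 6832 in muscle P1 and to 1382 to 1467 in muscle P2. Their part in the differences was not tested.

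**Figure D2:**
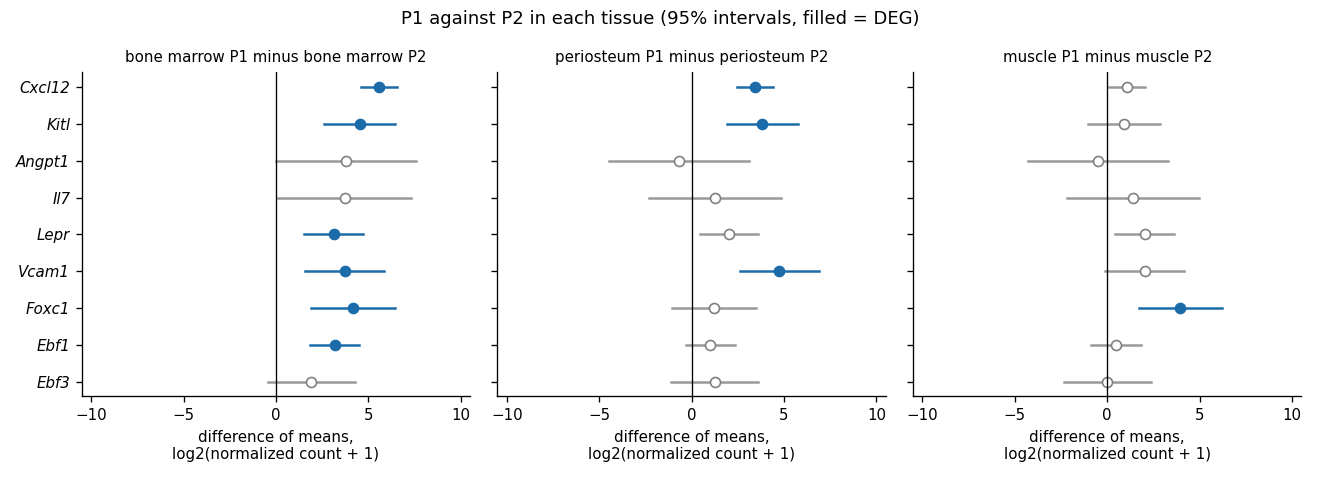
Differences between P1 and P2 in bone marrow, periosteum and muscle for the 9 niche factors. The horizontal axis is the difference of mean log2(normalized count + 1), lines are 95% intervals from limma, and filled points are DEGs. In bone marrow all 9 points lay above 0 and 6 were DEGs, against 3 in periosteum and 1 in muscle.

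Whether the step from P2 to P1 differed between tissues was tested directly as a difference of differences. The P2 groups at the base of this step were unlike in makeup. Erythroid genes took 45% to 48.1% of the counts of bone marrow P2, 24.4% to 39.2% of periosteum P2 and 0.928% to 1.59% of muscle P2. Myofibre genes took 8.88% to 9.45% of muscle P2, and at most 0.00161% of bone marrow P2 and 0.00642% of periosteum P2. The part of makeup in the steps was not tested. For Cxcl12 the step was larger in bone marrow than in muscle by 4.51 on the log2 scale (SE 0.67, adjusted p = 4.84e-05), and larger in periosteum than in muscle by 2.36 (SE 0.67, adjusted p = 0.0221). Between bone marrow and periosteum it differed by 2.15 (SE 0.67, adjusted p = 0.0499), a value at the edge of the threshold. Ebf1 also passed between bone marrow and muscle, with 2.69 (SE 0.92, adjusted p = 0.0371), while Kitl missed the threshold with 3.63 (SE 1.32, adjusted p = 0.0506). These were 2, 1 and 1 of the 9 niche factors for bone marrow against muscle, bone marrow against periosteum and periosteum against muscle. The share of all genes with a larger step was 7.48%, 2.66% and 6.22% in the same order. For the other niche factors the 95% intervals held 0 in all 3 tests, apart from Ebf1 between bone marrow and periosteum (2.15, adjusted p = 0.171) and Kitl between periosteum and muscle (2.93, adjusted p = 0.15). The intervals were wide, from -1.05 to 9.65 around 4.30 for Angpt1 between bone marrow and muscle, with Lepr at 1.10 (95% interval -1.14 to 3.34) and Foxc1 at 0.19 (-3.00 to 3.39) between bone marrow and muscle. Without 1 library, only Cxcl12 between bone marrow and muscle kept its call in every refit. Ebf1 lost its call without 8 of the 27 libraries, bone marrow P1 replicates 1 and 3, bone marrow P2 replicate 1, any muscle P1 library and muscle P2 replicates 1 and 2 (adjusted p = 0.0581 to 0.113). Kitl gained one without any of 7 libraries, bone marrow P3 replicate 1, periosteum P1 replicates 1 and 3, the 3 of periosteum P2 and periosteum P3 replicate 2 (adjusted p = 0.0118 to 0.0497). Cxcl12 lost its call between periosteum and muscle without periosteum P1 replicate 3 or muscle P1 replicate 2 (adjusted p = 0.057 and 0.0544), and a call for Kitl was gained there without periosteum P2 replicate 1 (adjusted p = 0.00702). Between bone marrow and periosteum Cxcl12 lost its call without any of 19 libraries, the 9 of muscle, bone marrow P1 replicates 1 and 3, bone marrow P2 replicates 1 and 3, bone marrow P3 replicate 3, periosteum P1 replicates 1 and 2, periosteum P2 replicates 2 and 3 and periosteum P3 replicate 3 (adjusted p = 0.0533 to 0.16). Without periosteum P2 replicate 2, Ebf1 gained a call there (adjusted p = 0.0136).

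P3 carries CD105 and was compared with P1 in each tissue. In bone marrow none of the 9 niche factors was a DEG by limma, where 6.60% of all genes were. All 9 overlapped between P1 and P3, whereas 36.6% of all genes did not overlap in either direction. None of the 9 had an unadjusted p below 0.05. Cxcl12 differed by 0.27 (95% interval -0.70 to 1.25), Vcam1 by 0.03 (-2.10 to 2.17), Lepr by 0.48 (-1.11 to 2.07) and Kitl by 1.0 (-0.93 to 2.93). Of the 9 intervals, that of Cxcl12 alone stayed within 1.5 in both directions. Without bone marrow P3 replicate 1 the same differences were 0.87, 0.67, 1.11 and 1.64, again with no DEG. The sign of the Cxcl12 difference turned with rescaled totals, to -0.70. Over the same pair of groups, 7 of the 9 osteoblast genes were higher in P1 and all 8 endothelial genes were lower.

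In periosteum Cxcl12 was lower in P1 than in P3, with a log2 difference of -2.11 (SE 0.47, adjusted p = 0.00904), the only DEG of the 9, where 2.79% of all genes were lower. With the 2 groups fitted on their own it was no DEG (adjusted p = 0.337). Cxcl12, Kitl and Vcam1 were lower in P1 without overlap, as were 6.53% of all genes. Kitl differed by -3.09 (SE 0.94, adjusted p = 0.0612) and Vcam1 by -2.99 (SE 1.03, adjusted p = 0.109). Kitl became a DEG without periosteum P1 replicate 3, periosteum P2 replicate 1 or periosteum P2 replicate 3 (adjusted p = 0.0441, 0.0112 and 0.0139). Ebf3 did so without periosteum P1 replicate 3 (adjusted p = 0.00949), Vcam1 without periosteum P2 replicate 3 (adjusted p = 0.0112) and Il7 without periosteum P3 replicate 2 (adjusted p = 0.044). In muscle no niche factor was a DEG in P1 against P3 by limma, where 0.466% of all genes were. An unadjusted p below 0.05 was reached by 2 of the 9, with no matching share of all genes. Cxcl12 differed by -1.80 (SE 0.47, adjusted p = 0.0964) and Kitl by -2.45 (SE 0.94, adjusted p = 0.474), and fitted on their own these groups gave both as DEGs (adjusted p = 0.00877 and 0.014). Cxcl12, Kitl, Il7 and Vcam1 were lower in P1 of muscle without overlap, as were 14.4% of all genes. Endothelial genes moved with these differences. The summed level of 8 endothelial genes had a median of 347 in P1 and 28188 in P3 of periosteum and of 4286 in P1 and 48134 in P3 of muscle, ranges that did not overlap, and their part in the differences was not tested. In bone marrow the medians were 172 and 6608, beside the values of Cxcl12 and Kitl that overlapped between P1 and P3.

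**Figure D3:**
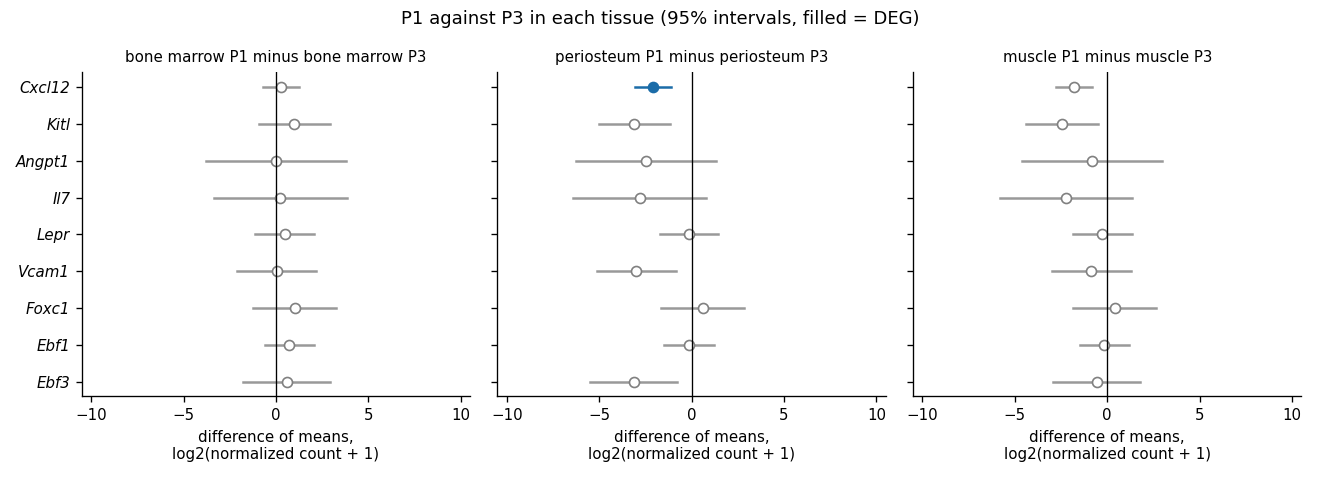
Differences between P1 and P3 in bone marrow, periosteum and muscle for the 9 niche factors, with 95% intervals from limma. The horizontal axis is the difference of mean log2(normalized count + 1), and the filled point is the only DEG, Cxcl12 in periosteum at -2.11.

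The difference between P1 and P3 was also compared between tissues. None of the 9 was a DEG by limma in the 3 tests. DEGs were 1.99% of all genes for bone marrow against muscle, 0.537% for bone marrow against periosteum and 0.249% for periosteum against muscle. In the same order, 2, 3 and 0 of the 9 had an unadjusted p below 0.05, with no matching share of all genes. Cxcl12 had 2.07 (SE 0.67, adjusted p = 0.125) between bone marrow and muscle and 2.38 (SE 0.67, adjusted p = 0.113) between bone marrow and periosteum. Both passed without bone marrow P3 replicate 1, with 2.67 and 2.98 (adjusted p = 0.0173 and 0.021).

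Between tissues, P1 of bone marrow was set against P1 of muscle and of periosteum. Against muscle, Cxcl12 was higher in bone marrow by 3.90 on the log2 scale (SE 0.47, adjusted p = 4.36e-06) and Lepr by 2.63 (SE 0.77, adjusted p = 0.0301). These were 2 DEGs of the 9, where 2.94% of all genes were higher. Cxcl12, Kitl, Angpt1, Il7, Lepr and Vcam1 were higher without overlap, as were 18.6% of all genes, and Ebf1 was lower without overlap, as were 20.5% of all genes, with -0.58 (SE 0.65, adjusted p = 0.817). Il7 had the largest difference, 4.29 (SE 1.74, adjusted p = 0.151), and Kitl had 1.88 (SE 0.94, adjusted p = 0.295). The Lepr call was lost without any 1 of the 6 libraries compared (adjusted p = 0.054 to 0.116), and a call for Il7 was gained without periosteum P3 replicate 2 (adjusted p = 0.0482). Fitted on their own, these groups gave 4 DEGs, Il7 and Kitl among them.

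Against periosteum P1, 3 of the 9 were DEGs higher in bone marrow P1, where 2.96% of all genes were. Cxcl12 differed by 3.17 (SE 0.47, adjusted p = 0.000157), Kitl by 3.88 (SE 0.94, adjusted p = 0.0139) and Angpt1 by 6.39 (SE 1.83, adjusted p = 0.0421). The Angpt1 value rests on 2 periosteum libraries below 1 and depends on the pseudocount, with 7.87 at a pseudocount of 0.1 and 5.02 at one of 5. All but Foxc1 and Ebf3 were higher in bone marrow without overlap, and 14.7% of all genes were. The DEGs numbered 1 without bone marrow P1 replicate 1, bone marrow P1 replicate 3 or periosteum P1 replicate 1, where Kitl and Angpt1 were lost, and 5 without periosteum P1 replicate 3, where Il7 and Ebf3 were gained (adjusted p = 0.0205 and 0.00477). The Angpt1 call was lost without 13 libraries in all, the 3 of bone marrow P1, muscle P1 and muscle P3, bone marrow P3 replicates 2 and 3 and periosteum P1 replicates 1 and 2 (adjusted p = 0.0508 to 0.177). Il7 was also gained without periosteum P3 replicate 2 or muscle P2 replicate 1 (adjusted p = 0.0145 and 0.044), and Vcam1 without any library of periosteum P2 (adjusted p = 0.00403 to 0.0419). Beside the 2 tissue comparisons, 8 of the 9 osteoblast genes and 8 of the 9 erythroid genes were DEGs higher in bone marrow P1 than in muscle P1, and 1 and 8 were so against periosteum P1. As a share of the counts, osteoblast genes did not overlap between the P1 groups, with 18.7% to 23.8% in bone marrow, 5.49% to 11.2% in periosteum and 0.75% to 1.22% in muscle. The 7 mural cell genes summed to 1051 to 3205 in bone marrow P1, below both other tissues. Their part in the differences was not tested. Of the 8 endothelial genes, 6 were lower in bone marrow P1 than in muscle P1.

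Between periosteum P1 and muscle P1 none of the 9 was a DEG by limma, where 4.90% of all genes were. An unadjusted p below 0.05 was reached by 5 of the 9, a count with no matching share of all genes. Kitl, Vcam1 and Ebf1 were lower in periosteum without overlap, as were 15.5% of all genes, with log2 differences of -2.0, -2.19 and -1.66 (adjusted p = 0.264, 0.269 and 0.159). Without periosteum P1 replicate 3, Angpt1 and Ebf3 were DEGs, with -6.85 and -4.05 (adjusted p = 0.0253 and 0.0234). Markers of other cells differed between these groups too. The summed level of the 7 mural cell genes was 4634 to 5814 in periosteum P1 and 37395 to 84850 in muscle P1, and osteoblast genes took 5.49% to 11.2% and 0.75% to 1.22% of the counts. Their part was not tested.

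**Figure D4:**
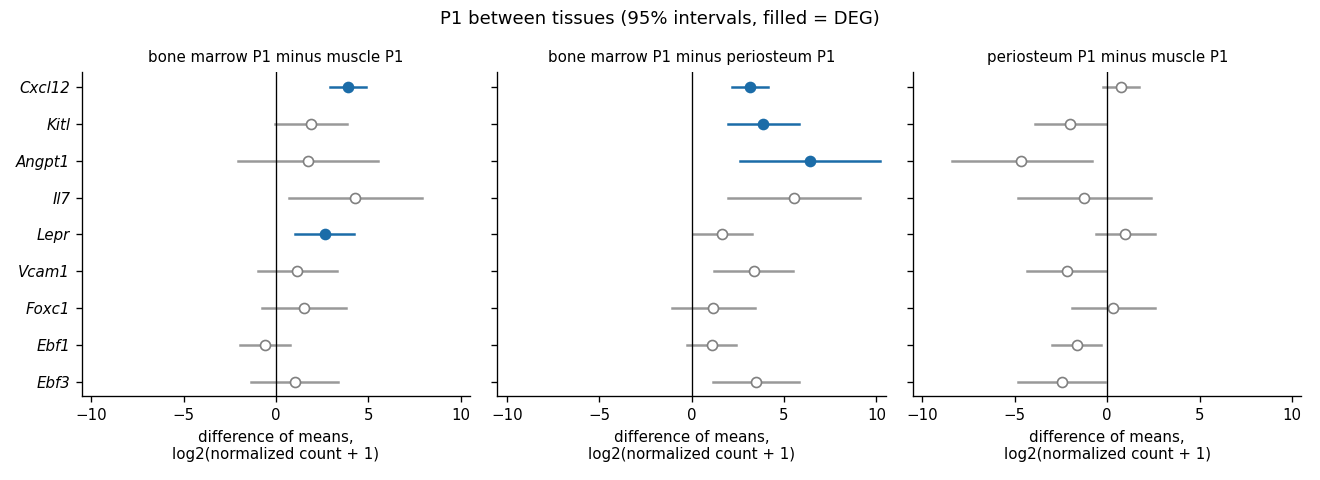
Differences of P1 between tissues for the 9 niche factors, with 95% intervals from limma. The horizontal axis is the difference of mean log2(normalized count + 1), and filled points are DEGs. Cxcl12 and Lepr were DEGs between bone marrow and muscle, Cxcl12, Kitl and Angpt1 between bone marrow and periosteum, and none between periosteum and muscle.

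P3 was compared between tissues in the same way. Bone marrow P3 exceeded muscle P3 in Cxcl12 by 1.83 on the log2 scale (SE 0.47, adjusted p = 0.0111), the only DEG of the 9, where 4.25% of all genes were higher. Without bone marrow P3 replicate 1 the difference was 1.23 and no longer a DEG (adjusted p = 0.0926). Cxcl12, Angpt1, Il7 and Lepr were higher in bone marrow P3 without overlap, as were 19.8% of all genes, and Kitl was lower without overlap, as were 29.4% of all genes, with -1.57 (SE 0.94, adjusted p = 0.352). Between bone marrow P3 and periosteum P3 none of the 9 was a DEG by limma, where 6.94% of all genes were. An unadjusted p below 0.05 was reached by 1 of the 9 there and by 2 between periosteum P3 and muscle P3. No share of all genes was computed for these counts. Periosteum P3 and muscle P3 gave no DEG among the 9 by limma, where 3.50% of all genes were DEGs. Cxcl12 was higher in periosteum P3 without overlap (1.04, adjusted p = 0.228), as were 8.38% of all genes. Kitl, Angpt1 and Ebf1 were lower there without overlap, as were 20.6% of all genes, and Ebf1 differed by -1.68 (SE 0.65, adjusted p = 0.15). Endothelial genes differed between the P3 groups too. The summed level of 8 such genes was 3000 to 9692 in bone marrow, 24225 to 47317 in periosteum and 34541 to 59655 in muscle. Their part was not tested.

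The niche factors varied together across the libraries to unequal degrees. Over 27 libraries, Pearson's r of log2(normalized count + 1) was above 0 for all 36 pairs of genes, with a median of 0.57 and a range from 0.17 for Angpt1 and Foxc1 to 0.92 for Kitl and Vcam1. The points share tissue, subpopulation and library scaling, so these values describe the libraries and were not tested. Without P2, over 18 libraries, the median was 0.46, Kitl and Vcam1 had 0.86, and Ebf1 had -0.07 with Cxcl12 and -0.16 with Lepr. Among all genes that passed the filter, those most like Cxcl12 were H2-D1 (r = 0.912), Gdpd2 (0.900) and H2-K1 (0.891), of which H2-D1 and H2-K1 encode classical MHC class I chains. Vcam1 was itself the gene most like Kitl (0.922), before Fbln5 (0.920), which encodes an elastic fiber protein, and H2-T22 (0.892). The gene most like Lepr was Adipoq (0.838), which encodes adiponectin. Angpt1 was closest to Aldh1a2 (0.908), Tbc1d7 (0.906) and Nit2 (0.905), and Il7 to Wdr86 (0.814), Esm1 (0.813) and Ddx55 (0.785). By rank (Spearman's rho), the values were 0.907, 0.679 and 0.539 for the partners of Angpt1 and 0.824, 0.838 and 0.744 for those of Il7. For Lepr the next was Gdpd2 (0.836), and for Vcam1 they were Fbln5 (0.910) and Sept4 (0.877). The transcription factors had partners of their own. Foxc1 was closest to Tnc (0.797), Prdx4 (0.766) and Dlx5 (0.760), Ebf1 to Ppap2b (0.890), Serping1 (0.873) and Gstm2 (0.872), and Ebf3 to Klhdc8b (0.840), Plxna2 (0.830) and Map7 (0.821). Spearman's rho for these partners was lower, from 0.667 for Klhdc8b to 0.788 for Ppap2b.

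**Figure D5:**
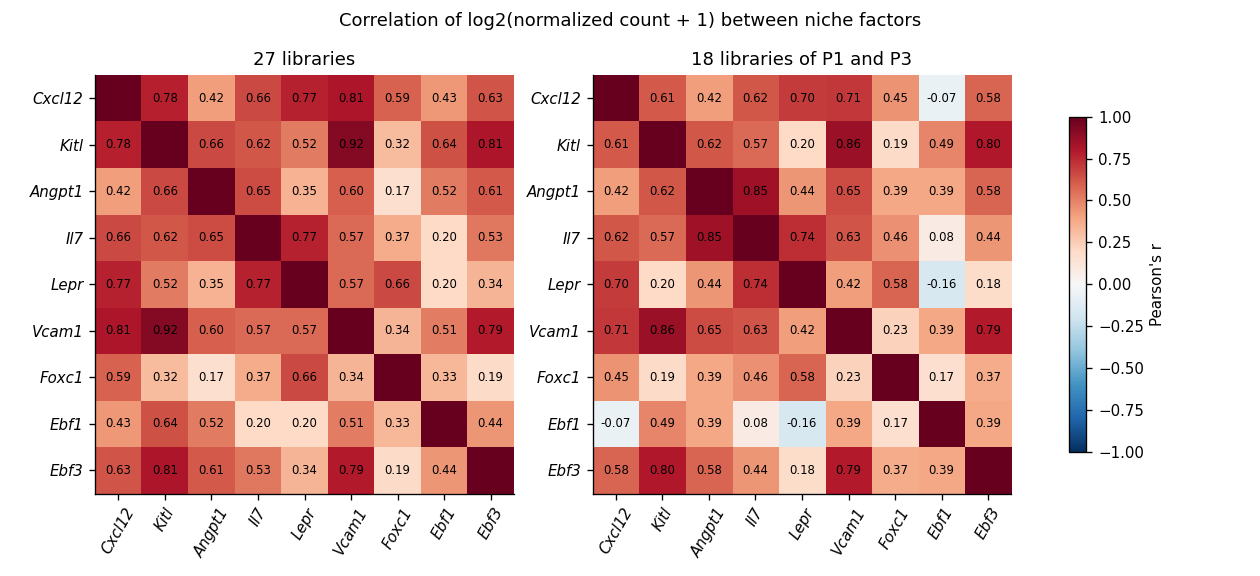
Pearson's r of log2(normalized count + 1) between the 9 niche factors, over all 27 libraries on the left and over the 18 libraries of P1 and P3 on the right. Rows and columns are the genes and the color scale runs from -1 to 1. Kitl and Vcam1 have the highest value on both sides, 0.92 and 0.86, and Ebf1 is near 0 with Cxcl12 on the right.

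Genes on the other side of these signals were read from a list of 12 receptors, modulators and co-ligands. In bone marrow P1 against P2, 1 was higher, Itgb1, and 5 were lower, where 10.4% of all genes were higher and 23.7% lower. Cxcr4, the receptor of CXCL12, was among the latter with -5.95 (SE 1.07, adjusted p = 0.000184) and was at 9.65 ± 7.23 in P1 and 587 ± 240 in P2 (SD, n = 3), beside the erythroid and leukocyte transcripts of P2. Ackr3, an atypical receptor that takes up CXCL12, was called in the most of the 12 comparisons of 2 groups, 1 higher and 5 lower. Its level was 11035 ± 4412 in muscle P1 and 328 ± 129 in bone marrow P1, a log2 difference of -5.08 (SE 0.50, adjusted p = 1.92e-07) opposite in sign to that of Cxcl12. Tek, which encodes the angiopoietin receptor TIE2, was lower in bone marrow P1 than in muscle P1, with a log2 difference of -11.24 (SE 1.60, adjusted p = 3.19e-05). The summed level of 8 endothelial genes, Tek not among them, was 168 to 185 in bone marrow P1 and 1910 to 5234 in muscle P1. The part of endothelial cells in the Tek difference was not tested. Kit, the receptor of stem cell factor, was a DEG in none of the 12 comparisons.

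A second list held 21 other genes of marrow stromal cells. In bone marrow P1 against P2, 14 of them were DEGs higher in P1 (10.4% of all genes) and none lower, with a median log2 difference of 3.92, close to the 3.73 of the 9 niche factors. In periosteum 8 and in muscle 4 were higher in P1 than in P2, against 10.1% and 3.59% of all genes, and none was lower. Adipoq was called in the most comparisons, 8, all with higher levels in the group named first, such as bone marrow P1 against muscle P1 (7.94, SE 1.03, adjusted p = 1.09e-05). Its level was 4324 ± 2101 in bone marrow P1, 3809 ± 2807 in bone marrow P3, 499 ± 550 in periosteum P1 and 24.1 ± 29.1 in muscle P1 (SD, n = 3). Gas6, Igfbp5 and Lpl, the 3 with the highest mean levels, were each higher in P1 than in P2 of bone marrow (5.07, 4.87 and 2.78) and of periosteum (3.92, 3.35 and 1.85). Between bone marrow P1 and P3, 1 of the 21 was a DEG, Pdgfra, higher in P1 by 1.82 (SE 0.47, adjusted p = 0.0152). Of all genes, 3.46% were DEGs higher in P1 there, so this count is near the background.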

How the data were processed

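RNA-seq of 27 libraries (SMART-Seq v4 and Nextera XT kits) was used. Per the study's methods, the authors trimmed reads with Trim Galore, aligned them with STAR and handled counts with DESeq2. The deposited table holds their normalized counts, a signal on a linear scale from which whole reads could not be recovered, so count models and counting errors were not computed. The genome build and annotation are not given in the sources used here. Gene positions and lengths are those of GENCODE M21 (GRCm38), matched by gene ID for 29732 of 30153 genes. A transgene entry was left out.

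Values were transformed to log2(normalized count + 1), with a pseudocount of 1, and genes reaching 10 in 3 or more libraries entered the fit. Differences came from limma 3.58.1 in R 4.3.3 (lmFit, eBayes with trend, 1 mean per group) with Benjamini-Hochberg adjustment. The code of the fit was run on simulated data with independent noise. Those data held no shared animals and no differences in makeup, so the run cannot show how the fit handles them. Groups came from the labels. Figures and correlations used Python 3.11.15, pandas 2.3.3, numpy 2.4.6 and matplotlib 3.10.9. The niche factors, lists and tests were chosen with earlier results of these data known. The genes named were the 9 niche factors, the 3 genes most like each, and the genes of the 2 lists with the 3 highest mean levels or called in the most comparisons. Cxcr4, Kit and Pdgfra were named after their values were seen, and 1 gene that the rule names is not reported here. Alternatives were other pseudocounts, filters, scalings and models, the replicate number as a block, the groups fitted alone, and each library left out in turn.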

Additional observations from a re-analysis of the deposited data

Results flagged for a closer look

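The change from P2 to P1 differed between tissues by a test of that difference in 4 cases. Cxcl12 changed more in bone marrow than in muscle by 4.51 on the log2 scale, more in bone marrow than in periosteum by 2.15, and more in periosteum than in muscle by 2.36. Ebf1 changed more in bone marrow than in muscle by 2.69. Not all of these calls were stable. That of 2.15 (limma adjusted p = 0.0499) was lost under 8 alternatives, the replicate block among them (adjusted p = 0.0644), and without any of 19 libraries, and that of Ebf1 (adjusted p = 0.0371) under 4 alternatives and without any of 8 libraries. That of 2.36 (adjusted p = 0.0221) was lost under 3 alternatives and without either of 2 libraries, and that of 4.51 was kept under every alternative tried. The P2 groups of the 3 tissues differed in their erythroid and myofibre transcripts, whose part in these 4 cases was not tested. Groups of 3 libraries are too small for the check of single libraries that stand apart.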

How the results depend on the processing

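Counts of DEGs among the 9 niche factors moved by over 1.5 times where few genes passed, and the cause was not tested. For the comparisons of P1 or P3 between tissues, bone marrow P1 against muscle P1 gave 1 without the trend and with rescaled totals (with or without globins) and 4 with the groups fitted alone. Bone marrow P1 against periosteum P1 gave 1 with a pseudocount of 0.1 and 5 with one of 5, periosteum P1 against muscle P1 gave 1 with the groups alone, and bone marrow P3 against muscle P3 gave 0 without the trend. Between subpopulations, groups fitted alone gave 1 for periosteum P1 against P2, 0 for periosteum P1 against P3, 0 for muscle P1 against P2 and 2 for muscle P1 against P3. Periosteum P1 against P3 gave 3 with a pseudocount of 5 and 2 with a mean filter of at least 50 and with rescaled totals, and muscle P1 against P2 gave 3 with rescaled totals. For the step from P2 to P1, bone marrow against muscle gave 1 without the trend and with rescaled totals. Bone marrow against periosteum gave 0 with a pseudocount of 0.1, no filter, a mean of at least 50, no trend and rescaled totals, and periosteum against muscle gave 0 with no trend, quantile normalization and rescaled totals without globins. In bone marrow P1 against P2 the count was 5 to 8 in all these settings.

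Libraries with the same replicate number did not deviate together (mean r of residuals 0.000242 over 36 pairs of groups, and -0.0592 to 0.0502 by pair). With the replicate block the counts were 4 for bone marrow P1 against periosteum P1 and for periosteum P1 against P2, and 0 for the step of bone marrow against periosteum.

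Without 1 library at a time the counts ranged from 6 to 7 for bone marrow P1 against P2, 1 to 3 for bone marrow P1 against muscle P1, 1 to 5 against periosteum P1, 0 to 2 for periosteum P1 against muscle P1, 0 to 1 for bone marrow P3 against muscle P3, 3 to 4 for periosteum P1 against P2, 1 to 3 for periosteum P1 against P3 and 0 to 1 for muscle P1 against P2. The steps from P2 to P1 had 1 to 3, 0 to 1 and 0 to 2, and those from P3 to P1 had 0 to 1 for bone marrow against muscle and against periosteum. Cxcl12 in bone marrow P1 against P3 turned sign with rescaled totals (-0.70), also without globins (-0.73), with quantile normalization (-1.37) and without bone marrow P3 replicate 2 (-0.06), and ranged from -0.06 to 0.87 without 1 library. Of 773 values of the 21 calls under the alternatives, 686 kept direction and call, 87 lost the call and none turned sign. With rescaled totals the median of all genes moved from -0.06 to -0.64 in bone marrow P1 against muscle P1 and from 0.00 to -0.79 in bone marrow P1 against P3. Low values limit Angpt1, Il7 and Ebf3 in periosteum, where several libraries were below 10. They also limit Kitl and Vcam1 in periosteum P2, where both were listed at 0 in replicate 3.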
